A study of Mus musculus with 16 samples.

Results

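C-type lectin receptors were followed in blood neutrophils through 8 genes, chosen by symbol among the 23337 gene symbols of the deposited count table: Clec4d, Clec4e, Clec4n, Clec5a, Clec7a, Clec4a2, Clec12a and Clec2d. The choice was made with earlier results of these data known. All 8 were among the 9213 genes that passed the filter on low counts. Neutrophils came from the blood of C57/Bl6 mice aged 8 weeks by magnetic negative selection. LTβRΔN mice carried Ltbr fl/fl and Mrp8-Cre, a transgene that acts in neutrophils and, by the names of the table's columns, also encodes GFP, and controls were littermates with Ltbr fl/fl and no Cre. The 16 bulk RNA-Seq libraries comprised 7 of control neutrophils, labelled unstimulated in 3 and stimulated in 4, and 9 of LTβRΔN neutrophils, labelled unstimulated in 4 and stimulated in 5. The protocol describes a culture of 2 h with 100 ng/ml of TNF, 50 ng/ml of IL-6 and as much GM-CSF as TNF, to which 500 ng/ml of soluble LIGHT was added or not. The text on the design names the cytokines as what was present or absent, and no label says which libraries received LIGHT, so the groups are called by their labels here. Nothing states that the libraries of a group came from separate animals, so p-values measure the spread between these libraries, which may be technical.

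C-type lectin receptors of myeloid cells bind sugars, lipids and signals of damaged cells on fungi, bacteria and dying tissue. Activating members signal through an immunoreceptor tyrosine-based activation motif, either on a partner chain (the Fc receptor gamma chain Fcer1g, or DAP12, encoded by Tyrobp) or in their own tail, and recruit the kinase SYK, which leads through CARD9 to NF-κB. Inhibitory members carry a motif that recruits phosphatases. On neutrophils these receptors are known for phagocytosis of fungi and for cytokine release.

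All 8 genes lie on chromosome 6 of GRCm38, as annotated by GENCODE M21, and fall into 3 places. Clec5a stands alone at chr6:40574894-40585821. Clec4a2, Clec4n, Clec4d and Clec4e lie within 183.4 kb at chr6:123106428-123289870, in that order along the chromosome, and all but Clec4e on the plus strand. Clec2d, Clec12a and Clec7a lie within 292.2 kb at chr6:129180615-129472779. Ltbr, the gene deleted in the LTβRΔN mice, is on the same chromosome at chr6:125306571-125313885, 2.02 Mb above the Clec4 cluster and 3.87 Mb below the Clec2d to Clec7a interval. None of the 8 genes shared exon bases with another annotated gene. Clec7a is annotated there as a polymorphic pseudogene. Clec4a2 has close paralogs, and how reads shared with them were counted is not given in the sources used here, so its values are uncertain to that extent.

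RefSeq promoter sequences on GRCm38.p6 were found for 7 of the 8 genes, from 250 bases before to 50 bases after a RefSeq start. The windows of Clec4a2 (chr6:123122440-123122739) and Clec12a (chr6:129349994-129350293) lie inside these genes as annotated by GENCODE, not at their first base. The windows of Clec4e, Clec5a and Clec7a are printed because these genes rose with stimulation, and that of Clec4d because this gene, next to Clec4e, did not pass the test. Capitals mark GAGGAA, the core of sites of the myeloid factor PU.1, or its reverse complement and, in Clec4e only, the reverse complement of TTGCNNAA, the core of C/EBP sites.
Clec4e, chr6:123289822-123290121, minus strand: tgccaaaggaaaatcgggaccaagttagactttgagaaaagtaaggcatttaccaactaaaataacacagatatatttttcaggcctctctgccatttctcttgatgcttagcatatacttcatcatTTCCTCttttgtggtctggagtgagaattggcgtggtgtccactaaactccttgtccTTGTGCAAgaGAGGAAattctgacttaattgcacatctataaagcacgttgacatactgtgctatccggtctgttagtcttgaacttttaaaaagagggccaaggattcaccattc
Clec4d, chr6:123261857-123262156, plus strand: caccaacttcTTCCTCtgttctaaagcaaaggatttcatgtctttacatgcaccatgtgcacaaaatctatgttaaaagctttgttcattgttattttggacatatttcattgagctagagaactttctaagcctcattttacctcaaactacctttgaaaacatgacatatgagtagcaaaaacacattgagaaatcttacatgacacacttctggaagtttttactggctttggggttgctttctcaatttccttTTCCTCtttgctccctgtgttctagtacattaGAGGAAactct
Clec5a, chr6:40585756-40586055, minus strand: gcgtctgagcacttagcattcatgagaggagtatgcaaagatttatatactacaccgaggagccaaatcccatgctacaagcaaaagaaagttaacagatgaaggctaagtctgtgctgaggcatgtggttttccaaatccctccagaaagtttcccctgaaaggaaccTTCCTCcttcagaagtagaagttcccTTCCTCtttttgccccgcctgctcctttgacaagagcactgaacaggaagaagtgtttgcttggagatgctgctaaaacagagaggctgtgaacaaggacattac
Clec7a, chr6:129472730-129473029, minus strand: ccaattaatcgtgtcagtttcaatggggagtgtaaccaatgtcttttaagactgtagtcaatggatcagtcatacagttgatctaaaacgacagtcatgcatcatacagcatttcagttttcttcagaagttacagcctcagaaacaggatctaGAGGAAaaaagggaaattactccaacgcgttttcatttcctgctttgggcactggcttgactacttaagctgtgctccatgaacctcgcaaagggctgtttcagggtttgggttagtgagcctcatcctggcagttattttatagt

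GAGGAA, searched on both strands, was present in the windows of 5 of the 7 genes with a sequence (Clec12a, Clec4d, Clec4e, Clec5a and Clec7a), and in 28.3% of all 27025 promoter windows of that length. TTGCNNAA was present in Clec4e and Clec12a and in 10.8% of all windows. A STAT core, TTCNNNGAA, was present in Clec4a2 (8.5% of all windows), and an AP-1 core, TGANTCA, in Clec4a2 and Clec12a (7.9%). An NF-κB core, GGG and TTCC with 3 bases between them, was present in none of the 7 and in 5.5% of all windows. In the 6709 windows of tested genes the shares were 27.3% for GAGGAA, 8.1% for TTGCNNAA, 7.0% for STAT, 4.8% for AP-1 and 6.7% for NF-κB. None of the marked stretches overlapped another in the 4 sequences shown. These matches describe the letters of the windows and were not tested for binding.

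Each library held between 1094335 and 11932653 counts. Levels are given in CPM, the counts of a gene scaled to the TMM-adjusted total of its library. Ltbr had 93.6 to 154 CPM in unstimulated and 84.6 to 148 CPM in stimulated control libraries, against 3.62 to 10.4 and 0.705 to 18.1 CPM in LTβRΔN libraries, as the genotype labels say. Of 12 neutrophil markers 11 were in the table, their summed level lay between 47953 and 78489 CPM, and 0 were called in any comparison. Markers of B, NK and erythroid cells summed to at most 6.08 CPM in every library, those of T cells to at most 16.8 CPM and those of eosinophils, basophils and mast cells to at most 11.3 CPM. Markers of immature neutrophils summed to between 1695 and 3279 CPM, with Elane, Mpo and Ctsg at 0. Markers of monocytes and macrophages summed to between 623 and 939.6 CPM, with C1qa and Fn1 at 0. Of these lists, 0 genes of B, NK and erythroid cells passed the filter on low counts, so that no call was possible there, and the 2 tested for T cells, 1 for eosinophils, basophils and mast cells, 4 for monocytes and macrophages and 6 for immature neutrophils were not called in any comparison. Cish, a target of cytokine receptors that signal through STAT5, rose with stimulation in control neutrophils, at 1.01 ± 0.587 CPM (SD, n = 3) in the unstimulated group and 435 ± 132 CPM (SD, n = 4) in the stimulated group (edgeR adjusted p = 2.68e-11). In bulk samples, fewer cells of a type and less RNA per cell cannot be told apart.

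Per length of exon, taken over all annotated exons of a gene, Clec4d was the most abundant of the 8 and Clec2d the least. The annotation used for counting is not known, so the order and shares below rest on these lengths. In plain CPM the order differed. In unstimulated control neutrophils Clec7a had 1727 and Clec4d 1480 CPM. In stimulated ones Clec4e had 2649, Clec7a 2503 and Clec4d 1881 CPM. In unstimulated control neutrophils the mean levels in CPM per kb of exon were 925 ± 67.7 (SD, n = 3) for Clec4d, 655 ± 63.0 for Clec7a, 264 ± 46.1 for Clec4e and 169.9 ± 54.3 for Clec4n. Far below these stood Clec4a2 at 37.6 ± 3.23, Clec12a at 27.1 ± 3.47, Clec5a at 26.2 ± 2.66 and Clec2d at 0.925 ± 0.974 CPM per kb. Clec4e and Clec4n, neighbours in this order, overlapped (218 to 311 against 136 to 233 CPM per kb), and so did Clec12a and Clec5a, whereas the other neighbours did not. In stimulated control neutrophils the levels per kb of exon were 1177 ± 53.2 (SD, n = 4) for Clec4d, 949 ± 74.0 for Clec7a, 534 ± 18.3 for Clec4e and 471 ± 93.4 for Clec4n. Clec5a came next there, at 59.2 ± 20.7 CPM per kb, with a range of 35.8 to 80.6 that overlapped those of Clec12a (34.7 to 41.0) and Clec4a2 (32.1 to 36.9). The LTβRΔN groups had the same first 4 genes in the same order. Summed over the 8 genes, the level per kb went from 2106 ± 192 (SD, n = 3) to 3264 ± 174 (SD, n = 4) CPM in control and from 2119 ± 314 (SD, n = 4) to 3099 ± 203 (SD, n = 5) CPM in LTβRΔN neutrophils. Clec4d, Clec4e and Clec4n together made up 64.5% ± 0.748 and 66.8% ± 1.95 of that sum in unstimulated and stimulated control neutrophils, and 62.7% ± 6.04 and 66.4% ± 2.09 in LTβRΔN neutrophils.

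**Figure D1:**
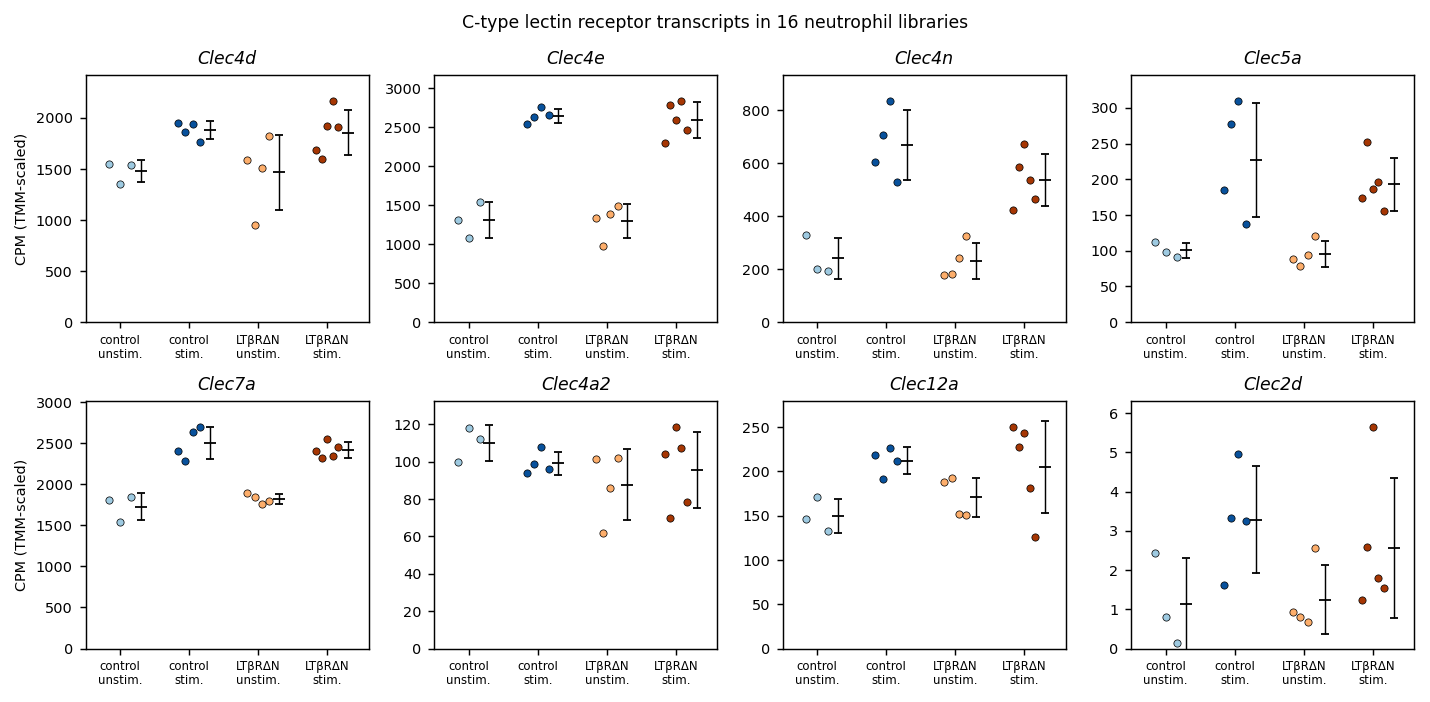
Level of each of the 8 C-type lectin receptor genes in CPM (vertical axis, linear from 0, scaled separately for each gene) in the 16 libraries, by genotype and treatment label. Points are libraries, and the bar beside them is the mean with its SD, cut at 0 for Clec2d. For Clec4e, Clec4n, Clec5a and Clec7a all stimulated libraries lie above all unstimulated libraries of the same genotype.

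Between stimulated and unstimulated control neutrophils, the question was which receptor transcripts moved with the treatment label. Clec4n, Clec4e and Clec5a rose 2.02- to 2.77-fold and Clec7a 1.45-fold, while Clec12a at a fitted 1.42-fold, Clec4d, Clec4a2 and Clec2d did not pass the test. In all, 4 of 8 genes were called higher at an adjusted p under 0.05 (edgeR quasi-likelihood test, Benjamini-Hochberg over 9213 genes), where 2.82% of all tested genes were, and 0 were called lower. The ranges of the 2 groups were apart, with the stimulated one higher, for 6 of the 8, as for 6.58% of all tested genes. The median log2 fold change was 0.77 over the 8 genes and -0.024 over all tested genes. Because the 8 genes were chosen with earlier results of these data known, these shares and medians are descriptions and not a test of the set.

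In LTβRΔN neutrophils, in which Ltbr is deleted, 4 of 8 genes were also called higher and 0 lower (edgeR), against 2.98% of all tested genes called higher. These were again Clec4n, Clec4e, Clec5a and Clec7a. Every stimulated library was the higher for these 4, without overlap, as for 4.61% of all tested genes. The median log2 fold change was 0.69 over the 8 genes and -0.028 over all tested genes. Here too the comparison with all tested genes is a description, given how the 8 were chosen.

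The 3 receptors that pair with the Fc receptor gamma chain were the most abundant group. Clec4e (Mincle, a receptor for mycobacterial cord factor and for the nuclear protein SAP130 of dead cells) had 1313, 1084 and 1542 CPM in unstimulated control libraries and 2542, 2639, 2763 and 2653 CPM in stimulated ones. In LTβRΔN neutrophils it had 1333, 977, 1390.0 and 1492 CPM in unstimulated and 2296, 2789, 2589, 2837 and 2461 CPM in stimulated libraries. The lowest stimulated library of either genotype was well above the highest unstimulated one. It rose by 1.01 (standard error 0.139, edgeR adjusted p = 2.22e-05) on the log2 scale in control and by 0.997 (standard error 0.122, edgeR adjusted p = 3.81e-06) in LTβRΔN neutrophils.

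Clec4n (Dectin-2, a receptor for fungal mannans) rose the most of the called genes. It had 330.2, 200.1 and 194 CPM in unstimulated and 604, 708, 835 and 529 CPM in stimulated control libraries. The LTβRΔN libraries held 179, 182, 243 and 324 CPM without and 422, 587, 673, 537 and 465 CPM with stimulation. The groups did not overlap, and 1 unstimulated library of each genotype, at 330.2 and 324 CPM, stood above the rest of its group. On the log2 scale the rise was 1.47 (standard error 0.226, edgeR adjusted p = 0.000106) in control and 1.20 (standard error 0.198, edgeR adjusted p = 0.000246) in LTβRΔN neutrophils.

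Clec4d (MCL or Dectin-3, which forms heteromers with Mincle) had 1549, 1355 and 1535 CPM in unstimulated and 1951, 1862, 1943 and 1769 CPM in stimulated control libraries. In those of LTβRΔN mice it had 1586, 948, 1506 and 1826 CPM without and 1684, 1601, 1919, 2166 and 1910 CPM with stimulation. The control groups did not overlap and the LTβRΔN groups did. Its log2 fold changes of 0.35 (standard error 0.156, unadjusted p = 0.0371, edgeR adjusted p = 0.385) and 0.34 (standard error 0.137, unadjusted p = 0.0223, edgeR adjusted p = 0.257) did not pass. The 95% interval in control neutrophils, 0.023 to 0.67, does not reach the fitted change of Clec4e.

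Within a library the ratio of 2 genes does not depend on how the library is scaled. The ratio of Clec4e to Clec4d, in counts per exon base, in control libraries was 0.285 ± 0.0344 (SD, n = 3) when unstimulated and 0.454 ± 0.0261 (SD, n = 4) when stimulated. In LTβRΔN libraries it was 0.291 ± 0.0312 (SD, n = 4) and 0.454 ± 0.0604 (SD, n = 5). The ratio of Clec4n to Clec4d was 0.183 ± 0.0510 (SD, n = 3) and 0.399 ± 0.0693 (SD, n = 4) in control and 0.181 ± 0.0387 (SD, n = 4) and 0.329 ± 0.0692 (SD, n = 5) in LTβRΔN libraries. For both ratios the stimulated libraries lay above all unstimulated ones of their genotype. The ratio of Clec4n to its neighbour Clec4a2 went from 4.63 ± 1.91 (SD, n = 3) to 13.8 ± 1.98 (SD, n = 4) in control and from 5.52 ± 1.30 (SD, n = 4) to 11.97 ± 3.33 (SD, n = 5) in LTβRΔN libraries, also without overlap. The ratio of Clec7a to Clec12a did not separate the labels, at 18.9 to 29.0 in unstimulated and 23.0 to 26.6 in stimulated control libraries and 20.1 to 25.0 and 20.2 to 41.0 in LTβRΔN libraries. These ratios are descriptions and were given no test.

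**Figure D2:**
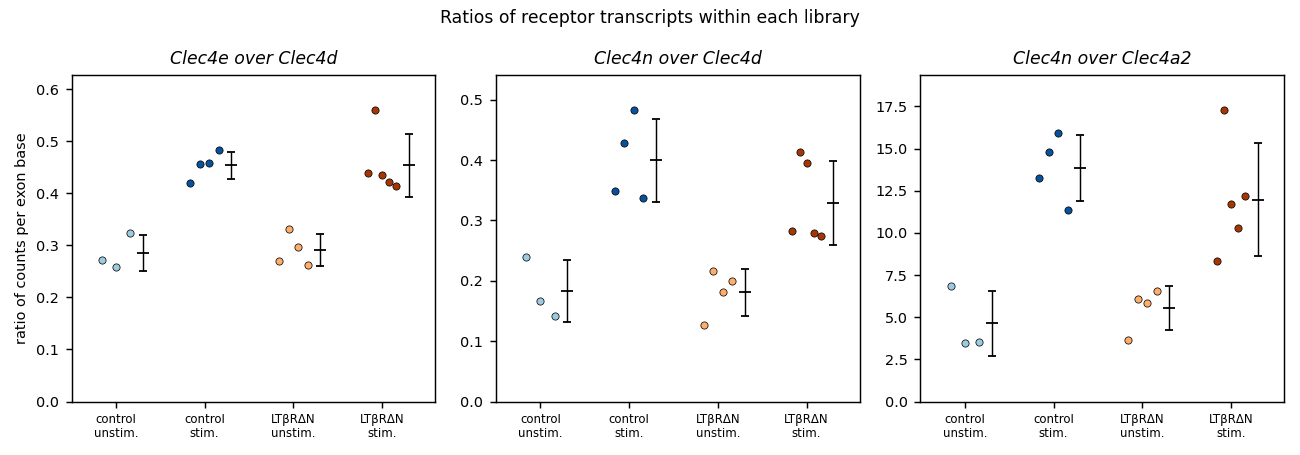
Ratio of counts per exon base (vertical axis, linear from 0) of Clec4e to Clec4d, Clec4n to Clec4d and Clec4n to Clec4a2 in each of the 16 libraries, by genotype and treatment label. Points are libraries and bars are mean and SD. Stimulated libraries lie above unstimulated ones in all 3 panels, at 0.415 to 0.561 against 0.258 to 0.332 for Clec4e to Clec4d.

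Clec5a (MDL-1, which pairs with DAP12 and is known as a receptor for flaviviruses) had 112, 98.6 and 91.5 CPM in unstimulated and 185, 277, 309 and 138 CPM in stimulated control libraries. Its level in LTβRΔN neutrophils was 87.8, 79.2, 94.4 and 121 CPM without and 173, 252, 187, 196 and 156 CPM with stimulation. The groups did not overlap. Relative to their mean, the stimulated control libraries spread more widely (227 ± 79.5 CPM, SD, n = 4) than for Clec4e (2649 ± 90.6 CPM, SD, n = 4). The fitted log2 change was 1.17 (standard error 0.231, edgeR adjusted p = 0.00216) in control and 1.01 (standard error 0.205, edgeR adjusted p = 0.00297) in LTβRΔN neutrophils.

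Clec7a (Dectin-1, the receptor for fungal beta-glucan, which signals through its own tail) had 1807, 1536 and 1839 CPM in unstimulated and 2404, 2278, 2638 and 2691 CPM in stimulated control libraries. LTβRΔN libraries had 1888, 1843, 1758 and 1796 CPM without and 2404, 2316, 2552, 2347 and 2457 CPM with stimulation. The rise was smaller than that of Clec4e, Clec4n and Clec5a in fitted size, and the spread within the LTβRΔN groups was narrow. It amounted to 0.54 (standard error 0.102, edgeR adjusted p = 0.00160) in control and 0.41 (standard error 0.0898, edgeR adjusted p = 0.00657) in LTβRΔN neutrophils, as log2 fold changes. Scaled by library totals only, it no longer passed, at 0.29 (edgeR adjusted p = 0.104) and 0.22 (edgeR adjusted p = 0.156). That scaling moved the median of all tested genes to -0.27 and -0.21, and turned the split of called genes in control neutrophils from 260 higher and 61 lower to 201 higher and 272 lower, and in LTβRΔN neutrophils from 275 higher and 69 lower to 216 higher and 293 lower. Relative to that median, Clec7a stood 0.56 and 0.43 higher on the log2 scale. Without the 3 libraries under 2000000 counts, all of them LTβRΔN, it missed the threshold in LTβRΔN neutrophils at 0.39 (edgeR adjusted p = 0.0537).

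The inhibitory receptors did not pass the test. Clec12a (MICL, which binds uric acid crystals) had 147, 171 and 133 CPM in unstimulated and 219, 192, 227 and 212 CPM in stimulated control libraries, without overlap. In LTβRΔN neutrophils it had 188, 192, 152 and 150.4 CPM without and 249.8, 227, 243, 181 and 126 CPM with stimulation, so that 1 stimulated library lay below all unstimulated ones. Its log2 fold changes were 0.50 (standard error 0.189, unadjusted p = 0.0143, edgeR adjusted p = 0.228) and 0.27 (standard error 0.168, edgeR adjusted p = 0.574).

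Clec4a2 (DCIR, whose tail carries an inhibitory motif) had 99.6, 118 and 112 CPM in unstimulated and 93.8, 98.7, 108 and 96.0 CPM in stimulated control libraries. Among LTβRΔN libraries it had 102, 61.6, 86.0 and 102 CPM without and 104, 69.9, 118, 107 and 78.6 CPM with stimulation. Both pairs of groups overlapped. The log2 fold changes were -0.15 (standard error 0.197, 95% interval -0.56 to 0.26, edgeR adjusted p = 0.925) and 0.098 (standard error 0.178, 95% interval -0.27 to 0.47, edgeR adjusted p = 0.927).

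Clec2d (OCIL or Clr-b, a surface ligand of the NK cell receptor NKR-P1B rather than a sensor of microbes) was near the limit of detection, with 1 to 50 counts a library. It had 2.43, 0.793 and 0.140 CPM in unstimulated and 1.62, 3.32, 4.95 and 3.25 CPM in stimulated control libraries. For LTβRΔN libraries the levels were 0.928, 0.800, 0.679 and 2.55 CPM without and 1.25, 2.60, 5.64, 1.80 and 1.55 CPM with stimulation. The groups overlapped, and with 95% intervals of -0.84 to 3.87 and -1.14 to 3.07 on the log2 scale a change was not detectable at this depth (edgeR adjusted p = 0.754 and 0.816).

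**Figure D3:**
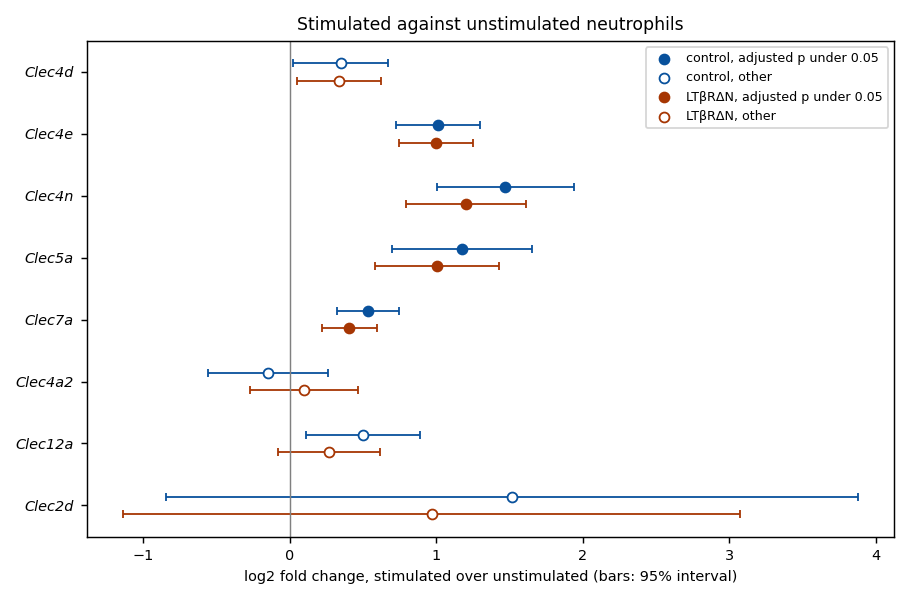
Log2 fold change of stimulated over unstimulated neutrophils (horizontal axis) for each gene, in control (blue) and LTβRΔN (brown) libraries, with 95% intervals from the edgeR fit. Filled points passed an adjusted p under 0.05. Clec4e, Clec4n, Clec5a and Clec7a are filled in both genotypes, from 0.41 for Clec7a in LTβRΔN to 1.47 for Clec4n in control neutrophils, and the interval of Clec2d spans 0.

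The library index moved with the treatment label. Index S520 marked 6 unstimulated libraries, and S521 marked 1 unstimulated control library and all 9 stimulated ones. With the index in the model, 157 of all 9213 tested genes were called in control neutrophils. Of the 8 receptors 2 were called, Clec4e at 0.78 (edgeR adjusted p = 0.0423) and Clec4n at 1.79 (edgeR adjusted p = 0.00494). Clec5a at 1.31 (edgeR adjusted p = 0.0929) and Clec7a at 0.44 (edgeR adjusted p = 0.269) were not. In LTβRΔN neutrophils that model called 79 of the 9213 tested genes and 0 of the 8 receptors. An unadjusted p under 0.05 was reached by 460 of the 9213 and by 3 of the 8. The model gave Clec4n at 1.66 (edgeR adjusted p = 0.0638), Clec5a at 1.21 (edgeR adjusted p = 0.514), Clec4e at 0.63 (edgeR adjusted p = 0.569) and Clec7a at 0.27 (edgeR adjusted p = 0.999868). All LTβRΔN libraries of 1 label share 1 index, so within that genotype index and label cannot be told apart and the index term rests on the control libraries. Within index S521, a comparison chosen after seeing the data, the 4 stimulated control libraries stood against 1 unstimulated one, assumed to vary like the others: Clec4e was higher by 0.78 (edgeR adjusted p = 0.00872) and Clec4n by 1.79 (edgeR adjusted p = 0.000997), and Clec5a and Clec7a did not pass (edgeR adjusted p = 0.169 and 0.302).

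Of the markers of dendritic cells, Cd74 was called in both genotypes and made up most of the summed level of the list. The 9 markers listed, of which 3 were tested, summed to 11.7 to 26.0 CPM in unstimulated and 168 to 381 CPM in stimulated libraries, with Siglech at 0 in every library. Cd74, the invariant chain of MHC class II, had 17.1 ± 3.54 CPM (SD, n = 3) against 297 ± 69.0 CPM (SD, n = 4) in control and 14.5 ± 5.53 CPM (SD, n = 4) against 253 ± 78.7 CPM (SD, n = 5) in LTβRΔN neutrophils. H2-Aa, a chain of MHC class II, was called in LTβRΔN neutrophils, at 0.391 ± 0.332 (SD, n = 4) against 10.9 ± 10.95 (SD, n = 5) CPM, and H2-Ab1, the third gene tested, was not called in either genotype. The part of other cells in the levels of the receptors was not tested. Platelet markers, none of them called, summed to 6.23 to 208 CPM, with the highest sum in 1 stimulated control library. When any 1 library was omitted, the same 4 of 8 genes (Clec4e, Clec4n, Clec5a and Clec7a) stayed called in both genotypes.

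Between LTβRΔN and control neutrophils, the question was whether the receptor transcripts differed with the genotype label. LTβRΔN mice carried Mrp8-Cre and controls no Cre, so the loss of Ltbr and the transgene cannot be told apart. None of the 8 was called in unstimulated neutrophils, where 0.0217% of all tested genes were (2 of 9213, Ltbr and Ap1s1), and none in stimulated neutrophils, also against 0.0217% (Ltbr and Ap1s1). An unadjusted p under 0.05 was reached by 0 of the 8 in either comparison by edgeR. Of all 9213 tested genes, 258 reached it in unstimulated and 591 in stimulated neutrophils. DESeq2 called 0 of the 8 in either comparison, beside 4 and 14 of all tested genes. Limma voom also called 0 of the 8, beside 5 and 2. Ranges of the genotypes overlapped for all 8 genes under both labels. How many of all tested genes overlapped in this way was not counted, so this overlap cannot be read as particular to the receptors.

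In unstimulated neutrophils the log2 fold changes of LTβRΔN over control lay between -0.31 for Clec4a2 and 0.18 for Clec12a, with 3 above and 5 below 0. Their median was -0.013, beside -0.0084 over all tested genes. Clec4e differed by -0.014 (95% interval -0.30 to 0.27) and Clec4d by -0.011 (95% interval -0.33 to 0.31). Clec7a differed by 0.076 (95% interval -0.13 to 0.29), the narrowest interval of the 8. The signs of Clec4d, Clec4e, Clec4n, Clec5a, Clec7a and Clec2d turned in at least 1 alternative. The intervals show how large a difference these libraries leave room for and do not show that the genotypes were alike.

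In stimulated neutrophils all 8 fitted values were below 0, from -0.37 for Clec2d to -0.020 for Clec4d, with a median of -0.057 beside -0.011 over all tested genes, and none passed. Clec4n was at -0.32 (95% interval -0.71 to 0.076, unadjusted p = 0.109, edgeR adjusted p = 0.861) and Clec5a at -0.23 (95% interval -0.64 to 0.18, edgeR adjusted p = 0.949). Clec4e was at -0.030 (95% interval -0.28 to 0.22) and Clec7a at -0.051 (95% interval -0.24 to 0.13). The signs of Clec4d, Clec4e, Clec4a2 and Clec12a turned with at least 1 other scaling or set of libraries.

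**Figure D4:**
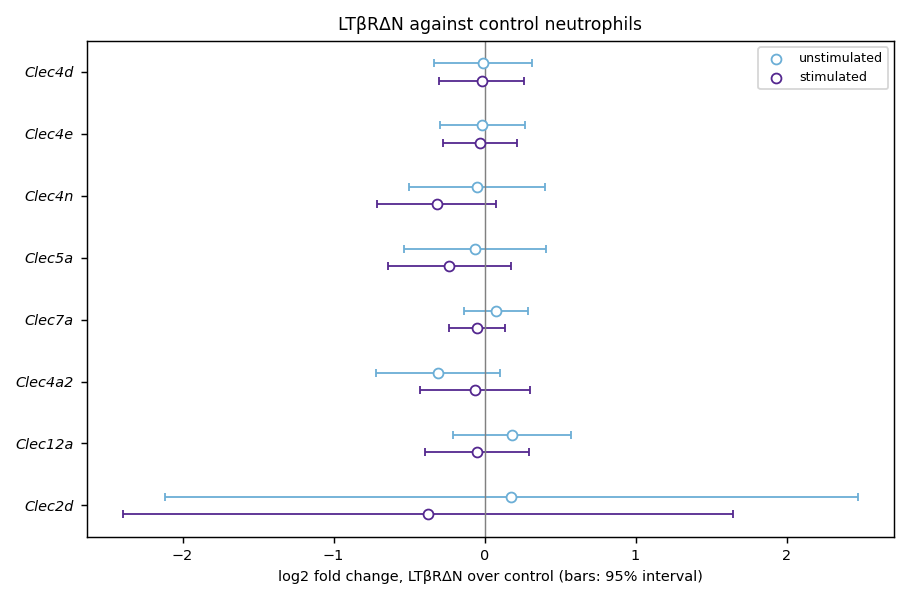
Log2 fold change of LTβRΔN over control neutrophils (horizontal axis) for each gene, unstimulated (light blue) and stimulated (purple), with 95% intervals from the edgeR fit. Open points did not pass an adjusted p under 0.05, and all 16 intervals span 0.

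Whether the change with the label differed between the genotypes was tested as an interaction. It was called for 0% of the 9213 tested genes (edgeR, 342 at an unadjusted p under 0.05) and for 0 of the 8 receptors, none of which had an unadjusted p under 0.05. DESeq2 and limma voom each called 0 of the receptors and 0 of all 9213 tested genes. The difference of the log2 fold changes, LTβRΔN minus control, was -0.27 for Clec4n (95% interval -0.87 to 0.33), -0.17 for Clec5a (95% interval -0.79 to 0.45), -0.13 for Clec7a (95% interval -0.41 to 0.15) and -0.016 for Clec4e (95% interval -0.39 to 0.36). The signs of Clec4d, Clec4e, Clec5a, Clec4a2 and Clec2d turned in at least 1 alternative.

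The genes that carry or restrain the signal of these receptors were looked at as a list of 53, of which 51 were in the table and 44 were tested. Phosphatases and brakes made up 10 of the 53. In control neutrophils 2 of the 44 were called higher with stimulation and 0 lower (edgeR), where 2.82% of all tested genes were called higher. In LTβRΔN neutrophils 3 were called higher and 0 lower, where 2.98% of all tested genes were called higher. No gene of the list was called between the genotypes under either label, where 0.0217% of all tested genes were. The median log2 fold change of the list was -0.043 in control and -0.0064 in LTβRΔN neutrophils, beside -0.024 and -0.028 over all tested genes.

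Syk, the kinase to which the activating receptors couple, had 360.1, 315 and 323 CPM in unstimulated and 634, 426, 479 and 494 CPM in stimulated control libraries, without overlap. LTβRΔN neutrophils had 290.1, 335, 318 and 389.7 CPM without and 416, 541, 533, 499 and 584 CPM with stimulation, also without overlap. It rose by 0.61 (standard error 0.148, edgeR adjusted p = 0.0157) and 0.63 (standard error 0.131, edgeR adjusted p = 0.00386) on the log2 scale. Traf6, a ubiquitin ligase downstream of CARD9, rose by 2.31 (edgeR adjusted p = 0.000202) and 1.45 (edgeR adjusted p = 0.00749). Ptpn11, the phosphatase SHP-2, rose in LTβRΔN neutrophils by 2.47 (standard error 0.581, edgeR adjusted p = 0.0120) and was at 0.39 in control neutrophils (edgeR adjusted p = 0.933), from levels of 1.13 to 17.4 CPM. The difference between the genotypes had an edgeR adjusted p of 0.999921.

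The partner chains did not pass. Fcer1g had 1586 ± 69.9 (SD, n = 3) and 1684 ± 108 (SD, n = 4) CPM in unstimulated and stimulated control neutrophils and 1646 ± 137 (SD, n = 4) and 1653 ± 127 (SD, n = 5) CPM in LTβRΔN neutrophils. Tyrobp had 7413 ± 458 and 7329 ± 262 CPM in control and 8203 ± 647 and 7201 ± 1018 CPM in LTβRΔN neutrophils. Card9, the adaptor downstream of SYK, had 123 ± 20.3 and 126 ± 16.5 CPM in control and 139 ± 19.4 and 115 ± 18.5 CPM in LTβRΔN neutrophils. Their groups overlapped in each case.

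Of 62 other genes of the C-type lectin-like family, 61 were in the table and 19 were tested. In control neutrophils 2 were called higher with stimulation and 1 lower, and in LTβRΔN neutrophils 2 higher and 0 lower (edgeR), where 2.82% and 2.98% of all tested genes were called higher. None was called between the genotypes, where 0.0217% of all tested genes were. Olr1 (LOX-1, a receptor for oxidised lipoprotein) rose with stimulation in both, to 127 ± 9.34 CPM (SD, n = 4) against 10.1 ± 7.13 CPM (SD, n = 3) in control and to 137 ± 17.4 CPM (SD, n = 5) against 6.59 ± 3.40 CPM (SD, n = 4) in LTβRΔN neutrophils. Cd69, an early activation antigen whose gene lies inside the Clec2d to Clec7a interval, rose by 3.03 (edgeR adjusted p = 5.29e-05) and 1.90 (edgeR adjusted p = 0.00204) on the log2 scale. Thbd (thrombomodulin) fell in control neutrophils by 1.82 on the log2 scale (edgeR adjusted p = 0.00564) and was at -1.18 in LTβRΔN neutrophils (edgeR adjusted p = 0.0687).

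Treatment label, depth and index differ between the libraries and can each be a source of likeness between genes. The 2 tested genes whose log2 CPM followed each receptor most closely over the 16 libraries are named by Pearson's r as a description. For Clec4e they were Asprv1 (r = 0.988) and the chemokine Cxcl2 (r = 0.979), for Clec4n Vmp1 (r = 0.988) and Il1f9 (r = 0.961), and for Clec5a Gabpb1 (r = 0.970) and Clec4n (r = 0.942). For Clec7a they were Irg1 (r = 0.961) and Nampt (r = 0.958), and for Clec4d Eif1 (r = 0.963) and Srgn (r = 0.943). The highest values were lower for the remaining 3, with Plscr3 (r = 0.797) and 9030418K01Rik (r = 0.790) for Clec12a, 2010107H07Rik (r = 0.818) and Bach1 (r = 0.802) for Clec4a2, and Clec4n (r = 0.826) and Bsg (r = 0.824) for Clec2d.

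Among the receptors themselves, Clec4n and Clec5a were the pair most alike over the 16 libraries (r = 0.942), and r was 0.732 after the mean of each group was taken out. Clec4e and Clec7a had r = 0.918 over all libraries but 0.245 within groups. Within groups the highest r was that of Clec4n and Clec2d, at 0.805, which rests on the 1 to 50 counts of Clec2d, and that of Clec4d and Clec4e was 0.764. The r of Clec4a2 with Clec7a over all libraries was -0.0012.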

How the data were processed

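Reads were single-end (HiSeq2500). The authors deposited 1 table of raw counts per gene symbol, without normalization. The submitters' processing notes name Bowtie 1.0.0, TopHat 1.4.1, HTSeq 0.7.1 and mm10. The gene annotation and strand setting are not given in the sources used here. Columns were matched to the 16 samples by the library number that opens each sample title. Library totals were 1094335 to 11932653 counts, which limits genes such as Clec2d.

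Genes were kept by filterByExpr (minimum count 10, minimum total 15), and counts were fitted in edgeR 4.0.16 (R 4.3.3) with TMM scaling, a mean for each group and quasi-likelihood F tests, all 16 libraries in 1 model. A gene was called at an adjusted p under 0.05 (Benjamini-Hochberg, 9213 genes). Intervals are 95% intervals of the fit. Log2 CPM used a prior count of 2. Alternatives used DESeq2 1.42.0 and limma 3.58.1 (voom with quality weights), other scalings, filters and thresholds, the library index, a replicate block, the compared groups only, no libraries under 2000000 counts, and each library left out. The fits were tested on simulated data. Library pairs of a group differed by more than sampling noise.

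Gene places and exon lengths came from GENCODE M21 on GRCm38, which matched 20929 symbols (89.7%), and promoters from RefSeq. The 8 genes, the marker and signalling lists and the rule for named genes (the 8, called genes of the lists, and the 2 most alike per member) were chosen with earlier results of these data known. Ap1s1, Cish, Cd74, H2-Aa, Fcer1g, Tyrobp and Card9 are named beside these.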

Additional observations from a re-analysis of the deposited data

Results flagged for a closer look

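In unstimulated LTβRΔN neutrophils, 1 library had 2.55 CPM of Clec2d, far from the other 3, which held 0.679 to 0.928 CPM. The gap to the nearest library was 0.867 of the range of the group. The value rests on 30 counts against 1 to 6 in the others. It was the 1 such value among 24 combinations of gene and group examined, where chance gives about 1.2.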

How the results depend on the processing

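Called genes in control neutrophils numbered 1049 at an unadjusted p under 0.05, 157 with the index as a covariate and 153 within index S521, with 2 receptors in each of the last 2. In LTβRΔN neutrophils they were 1199 at an unadjusted p under 0.05 and 79 with the index, with 0 receptors. Between unstimulated genotypes they were 258 at an unadjusted p under 0.05, 4 with all genes of at least 1 count, 1 with at least 10 counts in every library, 4 by DESeq2 and 5 by limma voom. Between stimulated genotypes they were 591, 1 with at least 10 counts in every library and 14 by DESeq2. For the interaction they were 342, and 1 with the index. Fewer genes are tested with at least 10 counts in every library. The cause of the other shifts was not tested. Without the libraries under 2000000 counts Clec7a in LTβRΔN neutrophils was at 0.39 (edgeR adjusted p = 0.0537).

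With 1 library left out, 219 to 334 genes were called in control, 266 to 334 in LTβRΔN, 2 to 6 between unstimulated genotypes, 2 between stimulated genotypes and 0 to 2 for the interaction. The 6 and the 2 came without the first unstimulated control library (library 71). The receptors called stayed 4, 4, 0, 0 and 0.

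Some values that were not called changed sign. Clec4a2 in LTβRΔN neutrophils was at -0.075 with library totals and -0.19 without libraries under 2000000 counts. Between unstimulated genotypes, Clec4d was at 0.016, Clec4e at 0.12 and Clec2d at -0.33 with the index; Clec4d at 0.012, Clec4e at 0.11 and Clec2d at -0.32 within S520 (chosen after seeing the data); Clec4e at 0.032 by voom; and Clec4d at 0.15, Clec4e at 0.097, Clec4n at 0.043 and Clec5a at 0.0064 without libraries under 2000000 counts. Between stimulated genotypes, Clec4d was at 0.0092 with upper-quartile scaling, and Clec4d at 0.0081 and Clec4e at 0.025 without libraries under 2000000 counts. For the interaction, Clec4a2 was at -0.036 without those libraries, Clec4d at 0.014 with upper-quartile scaling, 0.063 with library totals and 0.0050 with at least 10 counts, and Clec4e at 0.0056 and 0.050 with the same scalings. With 1 library left out, Clec4a2 in LTβRΔN neutrophils ranged from -0.027 to 0.20. Between unstimulated genotypes the ranges were -0.13 to 0.15 for Clec4d, -0.14 to 0.11 for Clec4e, -0.26 to 0.24 for Clec4n, -0.20 to 0.016 for Clec5a, -0.0024 to 0.12 for Clec7a and -0.49 to 1.402 for Clec2d. Between stimulated genotypes they were -0.15 to 0.038 for Clec4a2, -0.13 to 0.084 for Clec12a, -0.081 to 0.029 for Clec4d and -0.063 to 0.012 for Clec4e. For the interaction they were -0.17 to 0.11 for Clec4d, -0.15 to 0.11 for Clec4e, -0.35 to 0.017 for Clec5a and -1.77 to 0.11 for Clec2d.

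The number in the column names was shared by 7 pairs of unstimulated and stimulated libraries, whose deviations from the group means correlated by r = 0.021 to 0.069, with the own number as the best match in 6 of 7. The labels do not say what the number marks, and the libraries were not treated as paired. With a replicate block for it, 324 genes were called in control and 343 in LTβRΔN neutrophils and 0 for the interaction, with 4, 4 and 0 receptors. For the interaction the block gave 0.026 for Clec4d, 0.022 for Clec4e and 0.13 for Clec5a. The genotypes shared no such numbers. Depth limits Clec2d above all.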
